A study of Mus musculus with 12 samples.

Results

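The genes described here were the 10 mouse genes Slc2a1, Hk2, Gpi1, Pfkl, Aldoa, Tpi1, Gapdh, Pgk1, Pkm and Ldha, which carry glucose into the cell and convert it to lactate. They were taken by gene symbol from the transcript tables of both RNA-seq libraries, and all 10 were found among 21905 protein-coding genes that had both a measured transcript and coordinates. For each gene, every peak of 7 ChIP-seq peak lists was collected on the mm10 build from a window that ran from 1 kb before the gene's start to 5 kb beyond its end.

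Glycolysis breaks glucose down to pyruvate in the cytosol and yields ATP and NADH. Lactate dehydrogenase then reduces pyruvate to lactate and restores the NAD+ that the pathway needs. Pluripotent stem cells and proliferating cell lines are known for high rates of this pathway even when oxygen is plentiful, and several of its genes are classical targets of the hypoxia-inducible factors and of Myc.

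The study compared E14TG2a mouse embryonic stem cells (mESCs) with NIH3T3 cells, an established mouse embryonic fibroblast line. Per the labels, both were grown in the same GMEM medium with 10% serum and LIF. Ctr9, a subunit of the Paf1 elongation complex (Paf1C) that travels with RNA polymerase II (RNAPII), was precipitated through a GFP tag in both cell types, from sorted pools of GFP-positive cells rather than from single clones. H3K27ac, a mark of active promoters and enhancers, was mapped in both cell types. NELFA, a subunit of the factor that holds paused RNAPII, was precipitated through a GFP tag in mESCs only. RNAPII phosphorylated at Ser5 (initiating) or at Ser2 (elongating) was precipitated with antibodies to these forms, also in mESCs only. Each assay had 1 library per cell type, so no value below has a replicate error, no difference was tested, and a difference between libraries is not shown to be a difference between cell types.

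The RNA-seq libraries held 26400407 estimated counts in mESCs and 28849497 in NIH3T3 cells. The peak lists held between 1675 (Ser2p) and 44748 (mESC Ctr9) peaks, and the read depth behind them is unknown. The pluripotency markers Pou5f1, Sox2, Nanog, Esrrb and Zfp42 stood at 211 to 1402 TPM (transcript abundance as a length-corrected share of the library) in mESCs and at 0 to 0.511 in NIH3T3 cells. The fibroblast markers Col1a1, Col1a2, Col5a1, Thy1 and Vim stood at 94.5 to 1829 TPM in NIH3T3 cells and at 0.132 to 162 in mESCs, where Vim alone exceeded 5.69. Markers of endoderm, mesoderm, neural and blood cells did not exceed 2.85 TPM in either library.

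All 10 genes lay in the top 25% of expressed protein-coding genes by TPM in mESCs, and all but Hk2 did so in NIH3T3 cells. Of the 10, 4 were at least 2-fold higher in mESCs: the glucose transporter Slc2a1, the hexokinase Hk2, the phosphofructokinase Pfkl and the aldolase Aldoa. None was at least 2-fold lower. The level of a gene was taken as the TPM of its highest transcript, and the ratio was computed after adding 1 TPM to both sides. Over 12379 protein-coding genes with at least 1 TPM in either library, 23.8% were at least 2-fold higher in mESCs and 20.0% at least 2-fold lower. The median log2 ratio of the 10 genes was 0.44, beside 0.13 over those 12379 genes. In bulk RNA, a change in the share of cells that express a gene and a change in RNA per cell cannot be told apart.

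**Figure D1:**
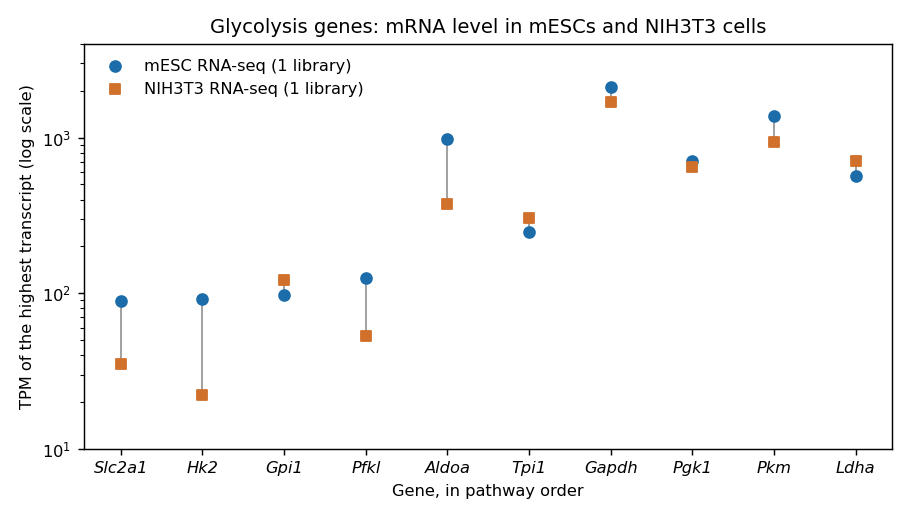
TPM of the highest transcript of each glycolysis gene (log scale) in the mESC library (circles) and the NIH3T3 library (squares), 1 library per cell type, in pathway order. Slc2a1, Hk2, Pfkl and Aldoa lie at least 2-fold higher in mESCs, while the other 6 pairs lie within 1.48-fold of each other.

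Slc2a1 (GLUT1, ENSMUSG00000028645.11, chr4:119108711-119137983, plus strand) imports glucose across the plasma membrane. Its highest transcript stood at 88.8 TPM in mESCs and 34.9 in NIH3T3 cells, a 2.50-fold difference (log2 ratio 1.32). Hk2 (ENSMUSG00000000628.10, chr6:82725025-82774454, minus strand) traps glucose as glucose-6-phosphate. It had the widest gap of the 10 genes, 91.6 TPM in mESCs against 22.1 in NIH3T3 cells (log2 ratio 2.00). Both genes were the lowest of the set in NIH3T3 cells.

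Gpi1 (ENSMUSG00000036427.5, chr7:34201330-34230336, minus strand) isomerises glucose-6-phosphate to fructose-6-phosphate. It stood at 97.7 TPM in mESCs and 122 in NIH3T3 cells (log2 ratio -0.31). Pfkl (ENSMUSG00000020277.10, chr10:77986947-78010083, minus strand) encodes the liver-type subunit of phosphofructokinase, the main control point of the pathway. It stood at 126 TPM in mESCs and 53.0 in NIH3T3 cells, 2.35-fold higher (log2 ratio 1.23). Aldoa (ENSMUSG00000030695.16, chr7:126795234-126800751, minus strand) cleaves fructose-1,6-bisphosphate. It stood at 984 TPM in mESCs and 375 in NIH3T3 cells, 2.62-fold higher (log2 ratio 1.39). A second gene ID that carries the Aldoa symbol held 3.16 and 1.73 TPM in all and was not used as the locus.

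By their highest transcript, the genes of the later steps differed less between the libraries, with Gapdh depending on the measure. Tpi1 (ENSMUSG00000023456.15, chr6:124810586-124814296, minus strand), which interconverts the triose phosphates, stood at 247 TPM in mESCs and 303 in NIH3T3 cells (log2 ratio -0.29). Gapdh (ENSMUSG00000057666.18, chr6:125161715-125166467, minus strand), which forms NADH and is a common reference gene, stood at 2110 and 1690 TPM (log2 ratio 0.32). Pgk1 (ENSMUSG00000062070.12, chrX:106187100-106203699, plus strand), which forms ATP, stood at 712 and 647 TPM (log2 ratio 0.14). Tpi1 was lower and Gapdh and Pgk1 were higher in mESCs, none by more than 1.25-fold on this measure. For Gapdh the highest transcript was not the same one in both libraries, and the difference was 1.73-fold on TPM summed over its transcripts and 3.45-fold on estimated counts, as described with its transcripts.

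Pkm (ENSMUSG00000032294.17, chr9:59656368-59679375, plus strand), which makes pyruvate and ATP, stood at 1382 TPM in mESCs and 931 in NIH3T3 cells, 1.48-fold higher (log2 ratio 0.57). Ldha (ENSMUSG00000063229.15, chr7:46841475-46855627, plus strand), which makes lactate, stood at 567 and 708 TPM (log2 ratio -0.32). Gapdh and Pkm were the highest genes of the set in both libraries. In NIH3T3 cells Ldha came next, while in mESCs Aldoa and Pgk1 stood above it. Without replicates it cannot be said which neighbours in this order differ.

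Because TPM corrects for length, these levels can be ranked among genes. In mESCs, the 10 genes lay between percentile 93.7 (Slc2a1) and 99.8 (Gapdh) of the 16158 protein-coding genes with a TPM above 0. In NIH3T3 cells they lay between percentile 73.8 (Hk2) and 99.6 (Gapdh) of 14646. Their transcripts made up 1.26% of all TPM in mESCs and 0.81% in NIH3T3 cells. Gapdh alone gave 50.9% and 45.8% of that share.

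The 10 symbols covered 90 transcripts, of which 29 held at least 5% of their gene's TPM in 1 or both libraries. Hk2 and Pgk1 came almost entirely from 1 transcript each, Hk2-201 (99.8% and 99.2% of TPM in mESCs and NIH3T3 cells) and Pgk1-201 (99.9% and 99.4%). Slc2a1 was divided between the coding Slc2a1-201 (81.5 and 25.3 TPM) and Slc2a1-204, which is annotated as a target of nonsense-mediated decay (88.8 and 34.9 TPM). The highest transcript of Slc2a1 was thus not its coding one in either library.

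Tpi1 was split in nearly the same way in both libraries, with Tpi1-205 at 59.5% and 59.6% of TPM and Tpi1-203 at 39.6% and 38.1%. Aldoa-201 made up 73.9% and 72.6% of Aldoa, Aldoa-210 a further 17.6% and 16.7%, and Aldoa-203 the next 4.13% and 5.44%. Pfkl-201 made up 68.2% and 57.2% of Pfkl, and Pfkl-202, a fragment annotated without its 3′ end, 28.3% and 37.0%. On summed TPM, Pfkl stood at 184 and 92.6, a 1.98-fold difference just under the 2-fold line.

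Gpi1 had 1 full-length form, Gpi1-201, at 33.3% and 40.1% of TPM. The rest lay mostly in fragments that lack a 5′ end, namely Gpi1-206 (71.3 and 62.4 TPM), Gpi1-207 (69.5 and 61.7) and Gpi1-205 (28.2 and 43.8). Ldha-202 held 68.8% of Ldha TPM in mESCs and 83.4% in NIH3T3 cells, and the fragment Ldha-205 17.2% and 14.4%. Ldha-209, annotated as a target of nonsense-mediated decay, held 73.1 TPM in mESCs and was listed at 0 in NIH3T3 cells. Summed over transcripts, Gpi1 stood at 293 and 303 TPM and Ldha at 825 and 849, with log2 ratios of -0.05 and -0.04.

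The transcripts of Gapdh differed widely between the libraries. In mESCs the full-length Gapdh-202 and Gapdh-201 stood at 2110 and 1879 TPM. In NIH3T3 cells the same transcripts stood at 156 and 126 TPM, together 14.1-fold lower. The highest transcript in NIH3T3 cells was instead Gapdh-207, a coding fragment of 471 nt without a 3′ end (1690 TPM, against 880 in mESCs), followed by Gapdh-206, a retained-intron form of 565 nt (1382 TPM, against 370). Gapdh-203, the third full-length form, stood at 721 TPM in mESCs and 302 in NIH3T3 cells, and Gapdh-208 at 448 and 45.7.

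The near parity of Gapdh therefore compared different transcripts. Summed TPM gave 6429 in mESCs and 3726 in NIH3T3 cells (1.73-fold). Estimated counts scaled to the library total (CPM), which carry no length correction and which were added as a measure after the values were seen, gave 4426 and 1284 (3.45-fold, log2 ratio 1.79, with a 95% counting interval of 1.77 to 1.80 that covers counting error only). Gapdh has many processed copies in the mouse genome, and 43 other genes in the tables shared at least 50% of their 31-base words with Gapdh transcripts.

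A single copy stood apart. Gm13394, a processed pseudogene at chr2:28933610-28934609 (minus strand) that had 96.8% of its words in common with Gapdh, was assigned 26304 estimated counts (1434 TPM) in NIH3T3 cells and 12 (0.722 TPM) in mESCs. None of the other 42 copies exceeded 4.80 TPM in either library. No peak of the 7 lists overlapped Gm13394 or its flanks, including Ctr9 and H3K27ac in NIH3T3 cells. In NIH3T3 cells, 25.8% of all protein-coding genes and 65.8% of those in the top 25% of TPM had a Ctr9 peak. For H3K27ac the shares were 54.7% and 97.5%. Transcription of the copy was not tested. Counts of Gapdh and its copies together came to 4461 CPM in mESCs and 2212 in NIH3T3 cells, 2.02-fold apart. In NIH3T3 cells 42.0% of those counts lay on the copies, against 0.786% in mESCs. The Gapdh level thus depends on how reads were divided between near-identical sequences, and the origin of the Gm13394 reads was not tested.

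**Figure D2:**
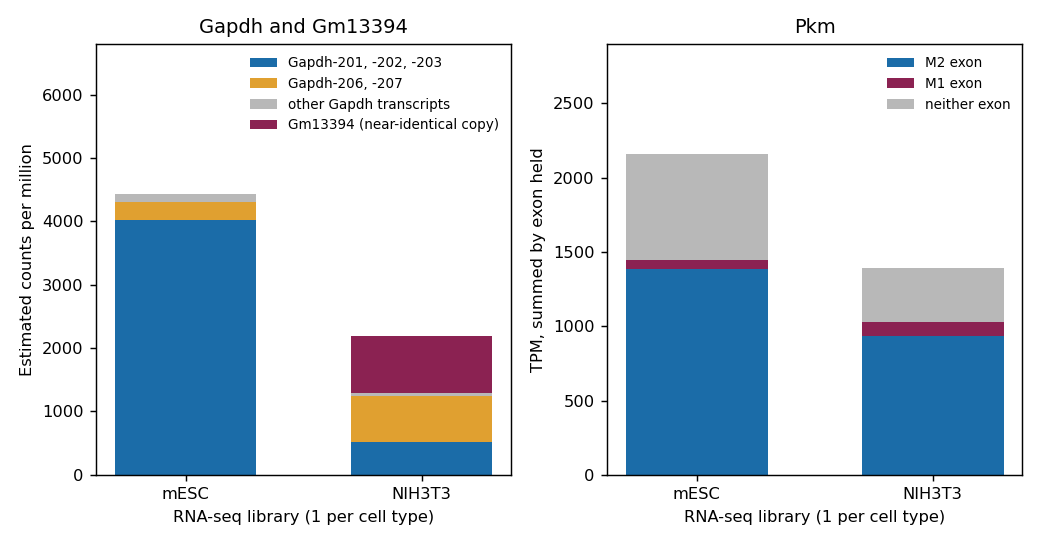
Left, estimated counts (CPM, the counts scaled to the library total) of Gapdh transcript groups and of its near-identical copy Gm13394, stacked, in the mESC and NIH3T3 libraries. Right, TPM of Pkm transcripts stacked by the mutually exclusive exon they hold. Gm13394 is visible only in NIH3T3 cells, and the M2 exon dominates Pkm in both libraries.

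Among the other 9 genes, such copies were assigned few of the counts. They held 1.96% of the counts of Gpi1 and its copy in mESCs, 1.13% for Pgk1 in mESCs, and less than that for Pkm and Tpi1. No other gene of the tables passed the 50% mark for Slc2a1, Hk2, Pfkl, Aldoa or Ldha.

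Pkm is spliced to include either of a pair of mutually exclusive exons, which give the constitutively active M1 form of adult muscle and brain or the regulated M2 form of embryonic and proliferating cells. Both exons are shown because the isoform measurement rests on telling them apart. They are 167 bases long, lie 372 bases apart on the plus strand and were read from RefSeq's GRCm38 sequence at chr9:59675029-59675195 (M1, in Pkm-202) and chr9:59675568-59675734 (M2, in Pkm-201). Capitals mark the 64 positions at which they differ, and the other 103 positions (61.7%) are the same.
Pkm M1 exon: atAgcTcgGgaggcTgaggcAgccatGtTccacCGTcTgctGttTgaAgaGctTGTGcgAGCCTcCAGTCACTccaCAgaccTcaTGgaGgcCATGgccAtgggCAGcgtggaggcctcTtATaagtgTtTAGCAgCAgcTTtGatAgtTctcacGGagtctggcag
Pkm M2 exon: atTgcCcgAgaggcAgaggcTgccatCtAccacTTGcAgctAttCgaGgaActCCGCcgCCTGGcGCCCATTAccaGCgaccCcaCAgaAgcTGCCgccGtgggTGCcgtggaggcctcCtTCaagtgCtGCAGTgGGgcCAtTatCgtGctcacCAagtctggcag

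The M2 exon was held by nearly all Pkm that could be typed. Pkm-201, with the M2 exon, stood at 1382 TPM in mESCs and 931 in NIH3T3 cells. Pkm-202, with the M1 exon, stood at 63.7 TPM in mESCs and 99.6 in NIH3T3 cells. M2 made up 95.6% of the typed TPM in mESCs and 90.3% in NIH3T3 cells, and exceeded M1 21.7-fold and 9.35-fold.

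By estimated counts, the M1 share was 3.74% in mESCs (95% exact binomial interval 3.60 to 3.88) and 8.26% in NIH3T3 cells (8.03 to 8.50). The intervals did not overlap, but they treat estimated counts as reads of known exon type. They cover counting error only, and neither the error of dividing reads between transcripts nor the spread between cultures. The other 9 Pkm transcripts held neither exon and made up 33.0% of Pkm TPM in mESCs and 26.1% in NIH3T3 cells. Nearly all of this was Pkm-211, a fragment of 582 nt without a 3′ end (655 and 317 TPM), while the retained-intron form Pkm-205 stood at 15.3 and 32.1 TPM.

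The remaining Pkm forms were minor. Pkm-207 stood at 20.8 TPM in mESCs and 5.37 in NIH3T3 cells, Pkm-208 at 12.4 and 2.57, Pkm-204 at 6.02 and 0.564, Pkm-209 at 1.72 and 4.62 and Pkm-206 at 0.767 and 1.11. Pkm-203 and Pkm-210 were listed at 0 in both libraries. Of the splicing factors known to repress the M1 exon, Ptbp1 stood at 412 and 443 TPM, Hnrnpa1 at 925 and 1285 and Hnrnpa2b1 at 557 and 410. Srsf3, which promotes the M2 exon, stood at 305 TPM in both libraries. No factor differed by more than 1.39-fold between the libraries.

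The peak lists were then read at the same genes. Fold enrichment is the authors' peak caller's value over the control at the summit of a peak. The lists come from separate precipitations, so fold enrichment is compared between genes within a list rather than between lists. Because every gene of the set but Hk2 in NIH3T3 cells lay in the top 25% of TPM of its cell type, the share of that class with a peak is given as background, beside that of all protein-coding genes. The class starts at 21.6 TPM in mESCs and 23.5 in NIH3T3 cells. It was not matched to the set in mRNA level or gene length, so a gap to it is not shown to be particular to these genes. For summit positions, a background share was computed for the strongest Ctr9 peak only. The positions in the other lists are therefore described without one.

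Ctr9 was found at all 10 genes in both cell types. In mESCs, 91.9% of the top 25% of genes and 44.1% of all genes had a Ctr9 peak. In NIH3T3 cells the shares were 65.8% and 25.8%. H3K27ac was found at the same 9 genes in both cell types and was missing at Pfkl in both, beside backgrounds of 89.7% and 43.1% in mESCs and 97.5% and 54.7% in NIH3T3 cells. For Ctr9 in mESCs and for H3K27ac, the counts are thus near those of other highly expressed genes, whereas for Ctr9 in NIH3T3 cells all 10 genes stood beside 65.8% of that class.

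The lists with fewer peaks divided the set. NELFA was found at 6 genes (Slc2a1, Hk2, Aldoa, Gapdh, Pkm and Ldha), beside 29.4% of the top 25% of genes and 10.4% of all genes. RNAPII Ser5p was found at 6 genes (Slc2a1, Aldoa, Tpi1, Gapdh, Pkm and Ldha), beside 36.3% and 12.8%. Ser2p was found at the same 6 genes as Ser5p, beside 21.3% and 6.99%. Slc2a1, Aldoa, Gapdh, Pkm and Ldha were in all 5 mESC lists, which held for 10.7% of the 4040 genes of the top class. Pfkl was at the other end, with Ctr9 peaks and nothing else.

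**Figure D3:**
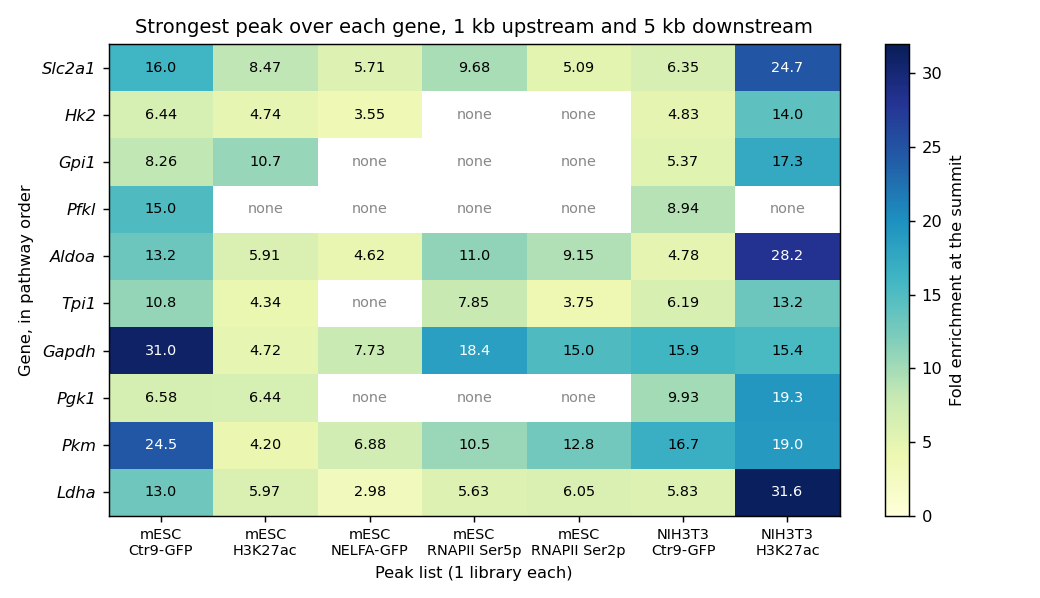
Fold enrichment of the strongest peak over each glycolysis gene and its flanks, by peak list, 1 library each. Gapdh and Pkm hold the highest Ctr9 values in both cell types (31.0 and 24.5 in mESCs, 15.9 and 16.7 in NIH3T3 cells), and Pfkl has no peak outside the Ctr9 lists.

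In mESCs, the strongest Ctr9 peaks of the set were at Gapdh (31.0-fold) and Pkm (24.5-fold), at percentiles 99.2 and 98.0 of the strongest peak of the 3712 bound genes in the top 25% of TPM. Slc2a1 (16.0-fold), Pfkl (15.0), Aldoa (13.2), Ldha (13.0) and Tpi1 (10.8) followed, at percentiles 91.4 to 79.1. Gpi1 (8.26), Pgk1 (6.58) and Hk2 (6.44) were lowest, at percentiles 65.9, 49.2 and 47.1. The median over the 10 genes was 13.1-fold, beside 6.68-fold over the class. Pgk1 thus carried middling Ctr9 enrichment with an mRNA level of 712 TPM, while Slc2a1 with 88.8 TPM carried more.

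The strongest mESC Ctr9 peak had its summit past the annotated gene end at all 10 genes, beside 76.2% of the bound genes in the top 25% of TPM. The distance from the gene end was 318 bps at Gapdh, 388 at Slc2a1, 399 at Ldha, 553 at Tpi1, 575 at Gpi1, 587 at Pfkl, 812 at Pkm, 1577 at Aldoa, 1601 at Hk2 and 1976 at Pgk1, with a median of 581. Over all 103 Ctr9 peaks of the set in mESCs, 80 summits lay in a gene body, 22 past the end and 1 upstream.

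Neighbouring genes lay close to many of these summits. The summit was inside the body of a neighbour at Pfkl (1810043G02Rik), Tpi1 (Spsb2), Gapdh (Iffo1) and Pkm (Gramd2), and nearer to a neighbour at Aldoa (Ppp4c) and Pgk1 (Taf9b). With only the peaks that were nearest to the glycolysis gene itself, the strongest peak lay past the end at 4 genes: Slc2a1, Hk2, Gpi1 and Ldha. The order of the genes also changed. The strongest such peak was 16.0-fold at Slc2a1, 13.0 at Ldha, 8.62 at Gapdh, 8.34 at Pkm, 8.26 at Gpi1 and 6.44 at Hk2. It was 5.27-fold at Aldoa, 4.19 at Tpi1, 3.71 at Pgk1 and 3.54 at Pfkl. The neighbours were weakly expressed in mESCs, at 2.95 TPM for 1810043G02Rik, 2.45 for Spsb2, 1.90 for Iffo1, 0.768 for Gramd2 and 0.569 for Taf9b. Ppp4c, at 108 TPM, was the exception. The part of the neighbours in the peaks was not tested.

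**Figure D4:**
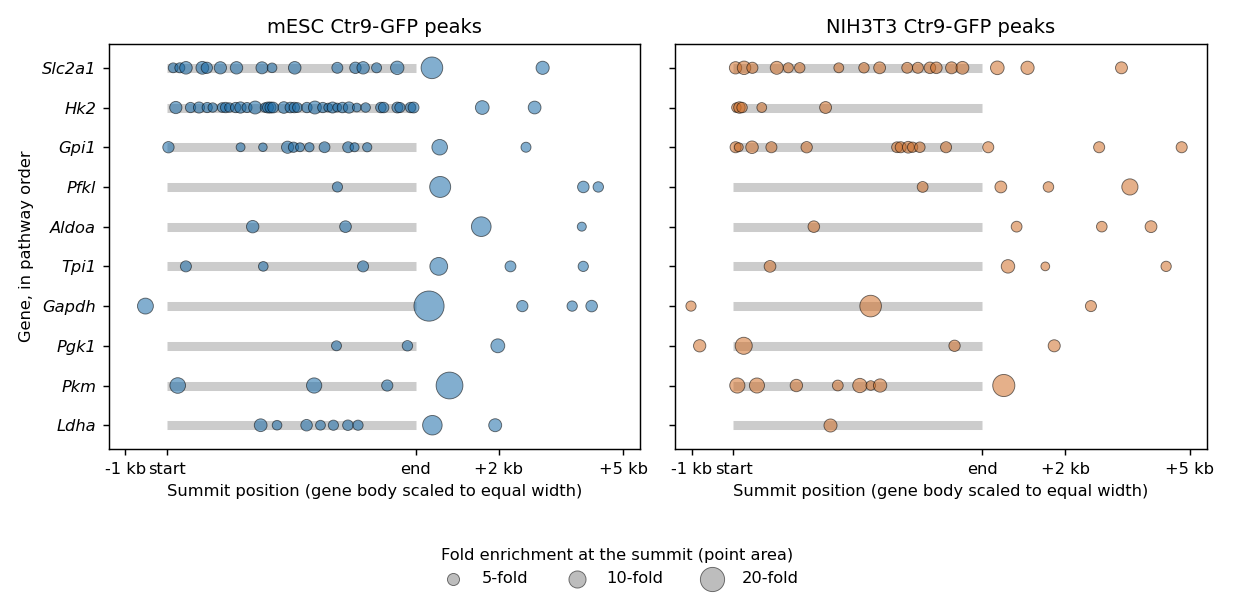
Summits of Ctr9 peaks along each glycolysis gene in mESCs (left) and NIH3T3 cells (right), with the gene body (grey bar) scaled to equal width, flanks in kb and point area proportional to fold enrichment. In mESCs the strongest peak of all 10 genes lies past the gene end, against 5 of 10 in NIH3T3 cells.

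Peaks covered much of the body of some genes and little of others. In mESCs, Ctr9 peaks covered 96.3% of the Pkm body, 95.8% of Gapdh, 83.0% of Slc2a1, 76.9% of Tpi1 and 65.5% of Aldoa. Coverage was 41.9% at Ldha, 37.6% at Hk2 and 15.7% at Gpi1, and only 4.6% at Pfkl and 3.9% at Pgk1. The median over the set was 53.7%, beside 7.78% over the bound genes of the top class, which was not matched in mRNA level or gene length. At Pkm a single peak of 12877 bps covered the 5′ part of the gene, whereas Hk2, with a body of 49.4 kb, had 38 separate peaks in its window, of between 2.58-fold and 6.44-fold.

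In NIH3T3 cells the strongest Ctr9 peaks were again at Pkm (16.7-fold) and Gapdh (15.9-fold), at percentiles 96.0 and 95.5 of 2409 bound genes in the top class. Pgk1 (9.93) and Pfkl (8.94) followed at percentiles 87.0 and 83.4. Slc2a1 (6.35), Tpi1 (6.19), Ldha (5.83), Gpi1 (5.37), Hk2 (4.83) and Aldoa (4.78) lay at percentiles 61.8 to 31.8. The median was 6.27-fold, beside 5.65-fold over the class. Pgk1 stood behind only Pkm and Gapdh in NIH3T3 cells and ahead of only Hk2 in mESCs.

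The strongest NIH3T3 peak lay past the gene end at 5 genes, beside 48.2% of the bound genes of the top class. These were Slc2a1 (359 bps past the end), Pkm (515), Tpi1 (616), Pfkl (3554) and Aldoa (4063). At the other 5 it lay in the body, 685 bps from the start at Pgk1, 2164 at Gpi1, 2618 at Gapdh and 18291 at Hk2. At Ldha the only Ctr9 peak lay 1100 bps downstream of the start of Ldha-202, whereas mESCs had 9 peaks there with the strongest past the end. With only the peaks nearest to the gene itself, 1 gene, Slc2a1, kept its strongest NIH3T3 peak past the end. Gapdh (15.9-fold) and Pgk1 (9.93) were then highest, ahead of Pkm (7.84).

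The number of peaks differed most at Hk2, with 38 in mESCs and 5 in NIH3T3 cells, and body coverage there was 37.6% and 4.6%. Hk2 was also the gene with the widest mRNA gap. Slc2a1 had 17 peaks in mESCs and 18 in NIH3T3 cells, with coverage of 83.0% and 41.1%, and Gpi1 had 13 and 14, with 15.7% and 16.6%. Pkm was covered at 92.4% in NIH3T3 cells, Tpi1 at 86.8% and Gapdh at 85.5%. Coverage was higher in mESCs at 7 of the 10 genes and higher in NIH3T3 cells at Tpi1, Gpi1 and Pgk1 (3.9% and 9.3%). The mESC list, however, held 44748 peaks and the NIH3T3 list 22016. When the mESC list was limited to its 22016 highest peaks by q, Ctr9 was still found at all 10 genes, but the number of its peaks over the set fell from 103 to 60, below the 65 in NIH3T3 cells. Hk2 then had 18 mESC peaks, with coverage of 20.5%. Coverage remained higher in mESCs at the same 7 genes, with a median over the set of 40.9% in mESCs and 14.8% in NIH3T3 cells.

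NELFA marked the starts of the genes at which it was found. The summit lay 60 bps upstream of the start of the highest transcript at Slc2a1, and 53 bps downstream of it at Hk2, 123 at Aldoa, 175 at Pkm and 38 at Ldha. At Gapdh it lay 890 bps past the annotated gene start, which was 196 bps past the start that RefSeq gives. Fold enrichment was 7.73 at Gapdh, 6.88 at Pkm, 5.71 at Slc2a1, 4.54 at Aldoa, 3.55 at Hk2 and 2.98 at Ldha. The windows of Gapdh and Aldoa held a second NELFA peak past the gene end. At Gapdh (4.92-fold) it lay 242 bps beyond the end, in the body of Iffo1. At Aldoa (4.62-fold) it lay 2734 bps beyond the end and 4 bps from the start of the expressed neighbour Ppp4c. With only peaks nearest to the glycolysis gene itself, NELFA was left with 6 peaks in place of 8, 1 at each of the 6 genes. With peaks of a −log10 q of at least 5 only, Hk2 and Ldha no longer had a NELFA peak and 4 genes remained.

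RNAPII Ser5p had a summit within 1 kb of the start of the highest transcript at all 6 genes where it was found, and a further peak past the gene end at 5 of them, the exception being Slc2a1. At Gapdh the start-side peak spanned 2576 bps at 11.6-fold and the end-side peak 2063 bps at 18.4-fold, at percentile 98.6 of the class. The end-side peak was also the stronger at Aldoa (11.0-fold), Pkm (10.5) and Ldha (5.63). It lay 92 bps from the start of Ppp4c at Aldoa, 167 bps from the start of Gramd2 at Pkm and in the body of Iffo1 at Gapdh. At Tpi1 (7.85) and Slc2a1 (9.68) the start-side peak was. With only peaks nearest to the gene itself, 13 of the 19 Ser5p peaks remained, and the end-side peak was the strongest at Ldha alone.

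Ser2p was strongest past the gene end at all 6 genes, with no summit within 1 kb of the start of the gene's highest transcript. The share of other genes with such positions was not computed, so this is not shown to be particular to the set. The distance was 327 bps at Gapdh, 369 at Slc2a1, 705 at Ldha, 923 at Pkm, 1055 at Tpi1 and 2638 at Aldoa. Fold enrichment was 15.0 at Gapdh, 12.8 at Pkm, 9.15 at Aldoa, 6.05 at Ldha, 5.09 at Slc2a1 and 3.75 at Tpi1. Here too neighbours lay close. The strongest summit lay 100 bps from the start of Ppp4c at Aldoa, 154 bps from that of Gramd2 at Pkm and 870 bps from that of Spsb2 at Tpi1. With only peaks nearest to the gene itself, Ser2p was found at 4 genes, without Tpi1 and Pkm, and was strongest past the end at 3 of them (Slc2a1, Aldoa and Ldha). Gapdh was the gene with the most Ser2p in its body, at 19.7% of its length. Counting the body alone left Ser2p at Gapdh and at Slc2a1, where it reached 0.1% of the body. The strongest Ctr9 peaks of Gapdh and Slc2a1 in mESCs, 318 and 388 bps past the end, lay close to these summits.

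H3K27ac lay near the start at most of the genes. At 8 genes in mESCs and 9 in NIH3T3 cells a summit lay within 1 kb of the start of the highest transcript. The share of other genes with such a summit was not computed. The strongest H3K27ac peak lay past the gene end at Hk2 and Gpi1 in mESCs and at Gpi1 and Tpi1 in NIH3T3 cells. In mESCs the strongest H3K27ac peaks were at Gpi1 (10.7-fold) and Slc2a1 (8.47), and the former lay 4836 bps past the Gpi1 end, next to the start of the neighbour Pdcd2l. In NIH3T3 cells they were at Ldha (31.6), Aldoa (28.2) and Slc2a1 (24.7), within 239 bps downstream of the start of the highest transcript at all 3. At Pgk1 the strongest summit lay at -839 bps from the start in mESCs (6.44-fold) and at -847 bps in NIH3T3 cells (19.3-fold).

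Promoter windows of 300 bases, 250 before and 50 after each RefSeq start on GRCm38.p6, were searched for ACGTG, the core of hypoxia response elements, for CACGTG, the E-box bound by Myc and related factors, and for GGGCGG, the GC box bound by Sp1. All 10 genes had a window, and 14 windows were found in all. ACGTG stood on either strand in 8 of the 14 windows, beside 19.6% of all 32851 promoter windows. These belonged to 7 genes (all but Gpi1, Pfkl and Tpi1). GGGCGG stood in 10 of the 14 windows, from 9 genes (all but Gapdh), beside 35.7%. CACGTG stood in 1 window, at Ldha, beside 7.15%. The set of all windows was not matched to these in base composition or mRNA level. A CACGTG also holds ACGTG on both strands, so these counts overlap. Genes with several windows had more sequence to match.

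The windows of Slc2a1, Hk2, Pgk1 and Ldha are shown because they hold ACGTG upstream of the start in genes of both kinds, those higher in mESCs and those with similar levels. Capitals mark ACGTG on either strand. Slc2a1 lies at chr4:119108495-119108794 (plus strand), Hk2 at chr6:82774405-82774704 (minus strand), Pgk1 at chrX:106186850-106187149 (plus strand) and Ldha at chr7:46845554-46845853 (plus strand).
Slc2a1 promoter: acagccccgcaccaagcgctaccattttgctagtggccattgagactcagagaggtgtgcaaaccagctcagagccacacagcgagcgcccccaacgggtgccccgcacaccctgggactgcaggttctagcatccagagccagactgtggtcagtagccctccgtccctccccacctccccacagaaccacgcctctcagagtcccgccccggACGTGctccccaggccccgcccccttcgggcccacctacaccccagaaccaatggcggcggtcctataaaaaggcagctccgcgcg
Hk2 promoter: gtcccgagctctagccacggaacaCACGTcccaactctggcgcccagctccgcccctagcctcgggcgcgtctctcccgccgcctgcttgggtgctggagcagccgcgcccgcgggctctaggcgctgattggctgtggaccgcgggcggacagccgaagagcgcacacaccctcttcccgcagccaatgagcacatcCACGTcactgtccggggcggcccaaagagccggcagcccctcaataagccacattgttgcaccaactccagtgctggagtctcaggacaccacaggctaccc
Pgk1 promoter: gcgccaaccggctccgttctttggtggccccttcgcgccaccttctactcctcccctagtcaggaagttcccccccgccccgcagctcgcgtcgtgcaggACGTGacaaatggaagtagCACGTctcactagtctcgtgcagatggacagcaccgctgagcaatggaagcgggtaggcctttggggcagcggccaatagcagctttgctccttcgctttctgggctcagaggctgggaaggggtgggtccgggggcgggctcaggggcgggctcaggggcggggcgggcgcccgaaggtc
Ldha promoter: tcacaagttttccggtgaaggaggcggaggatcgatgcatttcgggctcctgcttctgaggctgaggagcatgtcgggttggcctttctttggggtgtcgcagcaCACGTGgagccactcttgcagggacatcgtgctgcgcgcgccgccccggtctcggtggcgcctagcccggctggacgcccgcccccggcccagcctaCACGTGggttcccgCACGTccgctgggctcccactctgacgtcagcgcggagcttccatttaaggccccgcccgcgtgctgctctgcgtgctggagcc

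Ldha held 5 matches to ACGTG, a number that 0.183% of all windows reached. Of these, 4 came from a pair of CACGTG sites at positions -145 and -48, with the RefSeq start as position 0, and the last lay at -34. NELFA and Ser5p peaks overlapped this window in mESCs, with summits 73 and 78 bps past the start, and H3K27ac overlapped it in both cell types. Slc2a1 held ACGTG at -36, between a pair of GC boxes, and its window was overlapped by NELFA and Ser5p peaks with summits 109 and 152 bps past the RefSeq start. Hk2 held ACGTG at -226 and -52, and the mESC NELFA peak covered the site at -52 only. The Ctr9 and H3K27ac peaks of NIH3T3 cells reached the downstream edge of this window and covered neither site. Pgk1 held ACGTG at -150 and -131 and no mESC peak overlapped its window. The matches are letters in a window, and no factor that binds them was measured.

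Beside these 10 genes, 40 isozymes, transporters and regulators of glucose metabolism were listed, of which 30 reached 1 TPM in 1 or both libraries. Of those 30, 11 were at least 2-fold higher in mESCs and 7 at least 2-fold lower, beside the 23.8% and 20.0% of all genes. The median log2 ratio of the 30 genes was 0.52. Of the 11 higher genes, Ldhc (1.24 TPM), Slc2a4 (1.61) and Pgam2 (4.04) were low even in mESCs. The counts higher and lower became 13 and 7 with summed TPM. They became 10 and 8 after rescaling by the median ratio of expressed genes. The widest gaps in favour of mESCs were at glucose import, lactate export and phosphofructokinase. Slc2a3, the high-affinity glucose transporter GLUT3, stood at 362 TPM in mESCs and 1.86 in NIH3T3 cells, 127-fold higher after 1 TPM was added to each, and in mESCs it exceeded the 88.8 TPM of Slc2a1. Slc16a3, a lactate exporter, stood at 31.2 TPM and was listed at 0 in NIH3T3 cells. Pfkp, the platelet-type phosphofructokinase, stood at 86.3 and 4.03 TPM (17.4-fold).

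**Figure D5:**
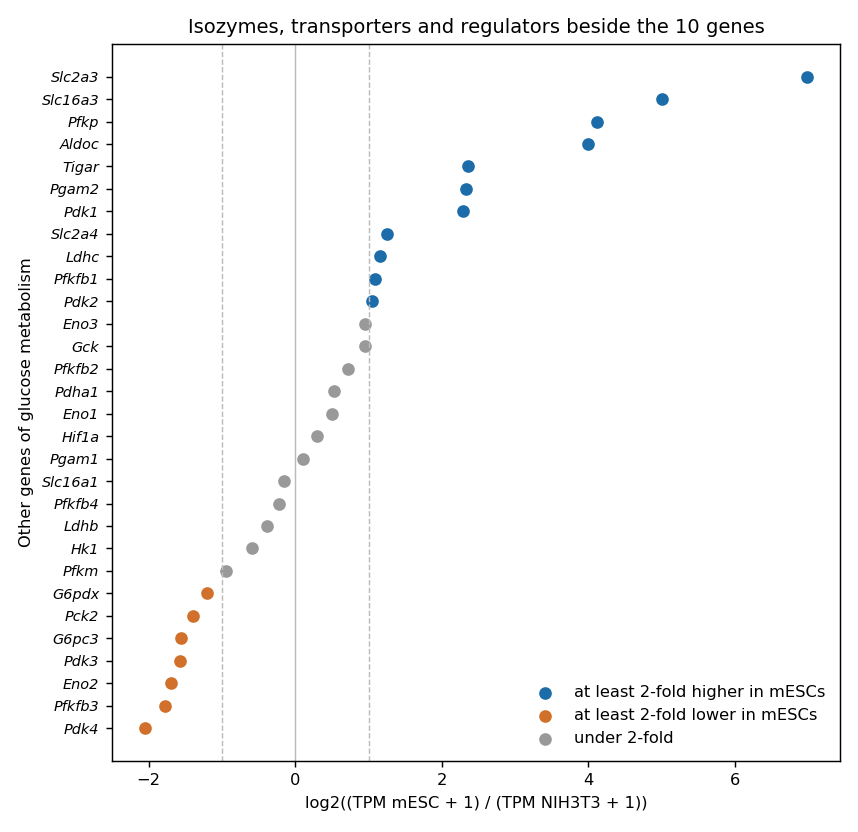
log2 ratio of TPM (mESC over NIH3T3, 1 TPM added to each) for the 30 other genes of glucose metabolism that reached 1 TPM, with dashed lines at 2-fold. Slc2a3, Slc16a3, Pfkp and Aldoc lie furthest to the mESC side and Pdk4, Pfkfb3 and Eno2 furthest to the NIH3T3 side. Slc16a3, Pgam2 and Ldhc were listed at 0 in NIH3T3 cells.

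On the NIH3T3 side, Pdk4, which inhibits pyruvate dehydrogenase, stood at 2.26 TPM in mESCs and 12.5 in NIH3T3 cells (4.15-fold). Pfkfb3, which makes the activator of phosphofructokinase, stood at 1.93 and 9.05 TPM (3.43-fold), and the neuronal enolase Eno2 at 0.760 and 4.68 (3.23-fold). The isozymes that complete the main route were closer. Pgam1, the mutase between Pgk1 and enolase, stood at 537 and 500 TPM and Eno1, the main enolase, at 1299 and 916. The Eno1 values are those of the short fragment Eno1-208, and near-identical copies of Eno1 could take part of its reads.

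Several isozymes of the 10 genes were expressed beside them. Aldoc stood at 19.1 and 0.255 TPM, far below Aldoa in both libraries. Hk1 stood at 10.9 TPM in mESCs and 16.8 in NIH3T3 cells, below Hk2 in both, and Pfkm at 8.68 and 17.7, below Pfkl in both. Ldhb, which favours the conversion of lactate to pyruvate, stood at 70.7 and 92.6 TPM, and the lactate transporter Slc16a1 at 36.1 and 40.5. In mESCs Pfkp (86.3 TPM) came near Pfkl (126 TPM), while in NIH3T3 cells it stood below both Pfkl and Pfkm.

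Ctr9 peaks in mESCs overlapped 10 of the 11 genes that were higher in mESCs and 3 of the 7 that were lower, beside 22 of all 30 and 44.1% of all protein-coding genes. In NIH3T3 cells Ctr9 peaks overlapped 3 of the 11 and 4 of the 7, beside 13 of the 30 and 25.8%. Of the genes in the top 25% of TPM, 91.9% had a Ctr9 peak in mESCs and 65.8% in NIH3T3 cells. The 30 genes were not matched in mRNA level to either background. Slc2a3 had 6 Ctr9 peaks in mESCs, the strongest 16.1-fold, and none in NIH3T3 cells, and Pfkp had 20 and none. Slc16a3, listed at 0 TPM in NIH3T3 cells, had 6 peaks in mESCs, the strongest 7.20-fold, and 4 in NIH3T3 cells, the strongest 7.75-fold. Pgam1 and Eno1, which were close in mRNA, had Ctr9 peaks in both, 14.5-fold and 17.5-fold in mESCs and 4.41-fold and 10.1-fold in NIH3T3 cells. For all of these other genes, the part of neighbouring genes in the peaks was not tested.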

How the data were processed

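Per the labels and the submitters' processing notes, the authors aligned ChIP-seq reads to mm10 with Bowtie2 2.3.5.1, called peaks with MACS2 2.2.6 and quantified RNA with kallisto 0.46.1. The deposited RNA-seq tables hold estimated counts and TPM per GENCODE transcript. The deposited peak lists hold a score, the fold enrichment at the summit (a ratio to the control), −log10 p and −log10 q per peak, 1 list per library. Peaks carry no read counts, so their depth is unknown. The 3 input libraries had no list and were not analysed here.

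Gene positions, transcripts and sequences came from GENCODE M21 and RefSeq (GRCm38). Of 137767 listed transcripts, 136468 matched M21, and the other 1299 were left out of the comparison of 31-base words. A gene's level was its highest transcript TPM, with a pseudocount of 1 and a 2-fold line. Overlaps needed 1 bp. With 1 library per assay and cell type, no test was run. The code passed 7 of 7 checks on simulated data (Python 3.11.15, pandas 2.3.3, SciPy 1.17.1).

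The 10 genes and all gene lists were chosen with earlier results of these data known. Named genes were the 10 genes, each transcript with at least 5% of its gene's TPM, all Pkm transcripts, the 3 largest changes each way among the 40 other genes, a fixed set of isozymes and splicing factors, and neighbours that share a peak. The Gapdh copy Gm13394 was named after its values were seen.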

Additional observations from a re-analysis of the deposited data

How the results depend on the processing

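The number of the 10 genes at least 2-fold higher in mESCs was 4 by the highest transcript and between 3 (summed TPM, which leaves Pfkl at 1.98-fold) and 5 (coding TPM and counts, which add Gapdh) under the alternatives. The median log2 ratio of 0.44 became 0.71 with TPM summed over transcripts, 0.84 with protein-coding transcripts only, 0.36 after rescaling by the median ratio of expressed genes (a shift of 0.08), and, in alternatives chosen after seeing the data, 0.88 with estimated counts (CPM) and 0.77 with near-identical copies added to them. Gapdh moved most, from a log2 ratio of 0.32 to 0.79 and 1.30 with summed and coding TPM, 1.78 with counts and 1.01 with copies. Mitochondrial transcripts, the pseudocount and the filter on low values changed no call. By estimated counts the M1 share of Pkm was 3.74% in mESCs and 8.26% in NIH3T3 cells, instead of 4.40% and 9.67%. Over the gene body alone, Ser2p was found at 2 genes instead of 6, and the strongest NIH3T3 Ctr9 peak lay past the end at 3 instead of 5. With only peaks nearest to the gene itself, the strongest Ctr9 peak lay past the end at 4 genes in mESCs and 1 in NIH3T3 cells. The other alternatives kept the numbers of genes with a peak within 1.5 times. No paired analysis was possible because each assay had 1 library per cell type. Depth could not be assessed for the peak lists.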

Other observations

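Eno1 stands beside an even more abundant listing. Eno1b-201, a single transcript annotated as coding under its own gene, stood at 1527 TPM in mESCs and 660 in NIH3T3 cells, above every transcript of Eno1 in mESCs. Its sequence was not compared here. Among the copies that were compared, the Eno1 pseudogene Gm4735 stood at 2.08 TPM in mESCs and 224 in NIH3T3 cells and held 30.4% of the counts of Eno1 and that copy in NIH3T3 cells, against 0.235% in mESCs. It was named after its values were seen, like the Gapdh copy Gm13394. For both enzymes, a pseudogene was assigned a large part of the joint counts in the NIH3T3 library alone. The levels of both enzymes there depend on how reads were divided, and the origin of those reads was not tested. Eno1b was not part of the joint counts, so the division of reads between it and Eno1 was not assessed in either library.

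Genes that share a name with a step of the pathway but are known from testis, Gapdhs, Pgk2 and Ldhc, stood at or below 1.24 TPM in both libraries. The window of Ldhc held 5 Ctr9 peaks in NIH3T3 cells, the strongest 8.74-fold, and 1 in mESCs (5.56-fold). The part of neighbouring genes in these peaks was not tested. Of the gluconeogenesis genes, Fbp1, Fbp2, Pck1 and G6pc stayed under 1 TPM in both libraries by their highest transcript. Summed over transcripts, Fbp2 reached 1.76 TPM in mESCs. The widely expressed Pck2 and G6pc3 were 2.64-fold and 2.95-fold higher in NIH3T3 cells.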
